A study of Mus musculus with 22 samples.

Results

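Tumours of obese mice given sulindac were set against tumours of obese mice given none, across all genes on the array. The members were chosen by sample title: 6 tumours of sulindac-treated obese mice and 5 tumours of untreated obese mice, 11 of the 22 tumours in the series. RNA was taken from whole colon tumours that azoxymethane, an alkylating carcinogen, had induced in male FVB/N mice. Fat supplied 60% of the energy in the diet of both groups, and by their labels the groups differed in sulindac alone. For the dose, route and duration of sulindac and the age of the mice, the source labels used here hold no value. The other 11 tumours came from 6 control mice, whose diet drew 10% of its energy from fat, and from 5 formerly obese mice, and they entered the fit to share the estimate of the spread. Each tumour had its own mouse number in the title, except one sulindac tumour titled Mouse_X, which was treated as a separate mouse. On that reading, the spread between arrays is a spread between mice.

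Sulindac is a non-steroidal anti-inflammatory drug whose sulfide metabolite blocks the cyclooxygenases, the enzymes that turn arachidonic acid into prostaglandins. In the colon the inducible cyclooxygenase, encoded by Ptgs2, and the synthase encoded by Ptges supply prostaglandin E2, which acts on cells through the receptors encoded by Ptger1 to Ptger4, and the dehydrogenase encoded by Hpgd breaks it down. Prostaglandin E2 promotes intestinal tumours in mice, and sulindac is known for reducing polyps in the human colon. The comparison asks how the tumours that grew in obese mice under the drug differ in gene expression from those that grew without it.

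Levels are log2 array signals, so a difference of 1 unit is a 2-fold difference, and a level is relative to the rest of its array. The epithelial marker Epcam lay at 16.73 to 17.43 in sulindac tumours and at 16.73 to 17.33 in untreated obese tumours, and Vil1, which encodes the brush border protein villin, at 12.11 to 13.91 and 13.06 to 13.84. Cdx2, an intestinal transcription factor, varied widely in both groups, at 5.92 to 11.93 in sulindac tumours and 7.26 to 12.75 in untreated obese tumours. Array medians lay between 6.67 and 6.83, and 2 arrays of the 11 correlated at 0.968 to 0.988. Of 22203 probe sets, 7307 had a mean level under 5, where the array says little about a gene.

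Not 1 of the 22203 probe sets passed an adjusted p of 0.05 in limma (0.0% called), and the smallest adjusted p was 0.533. At an unadjusted p under 0.05, limma counted 1454 probe sets, against 1110 expected if none differed. Of these, 682 (3.07%) lay higher and 772 (3.48%) lower in sulindac tumours than in untreated obese tumours, and these shares are the background for every count of genes below. At least 2-fold higher with such a p were 46 probe sets (0.207%), and at least 2-fold lower were 65 (0.293%). In 77 probe sets (0.347%) every sulindac tumour lay above every untreated obese tumour, and in 73 (0.329%) every sulindac tumour lay below. The 2-fold shares became 0.432% higher without untreated Mouse_109 and 0.513% lower without sulindac Mouse_114. The differences below are therefore sizes with their errors, and no gene is called changed.

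**Figure D1:**
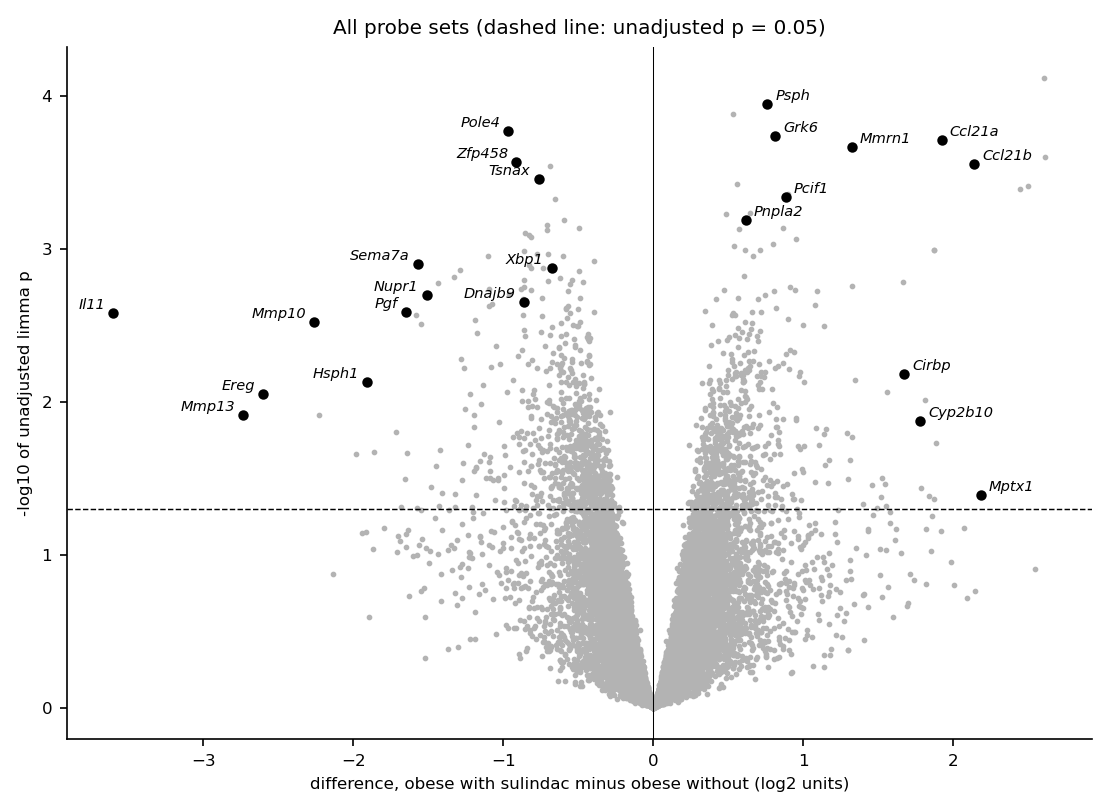
Each point is 1 of 22203 probe sets. The horizontal axis is the log2 difference, obese with sulindac minus obese without, the vertical axis is -log10 of the unadjusted limma p, and labelled points are genes of the text. Il11 at -3.60 lies far to the left, and Ccl21a at 1.92 to the right.

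Several secreted cytokines, growth factors and matrix-degrading enzymes lay lower in sulindac tumours by more than 2-fold. They included the cytokine gene Il11, the stromelysin genes Mmp3 and Mmp10, the collagenase gene Mmp13 and the growth factor genes Ereg and Pgf. Of 15 measured matrix metalloproteinases and their inhibitors, 10 lay lower, 4 of them (26.7%, against 3.48% of all probe sets) with an unadjusted p under 0.05, and the list's median difference was -0.69 against 0.01 over all probe sets. No member of the list had an adjusted p under 0.05, and 0 lay higher with an unadjusted p under 0.05. The 4 members were Mmp3, Mmp8, Mmp10 and Mmp13, all on chromosome 9. In an exact permutation test of each gene, Mmp10 had a p of 0.026, and Mmp3, Mmp8 and Mmp13 had 0.0736, 0.0779 and 0.0563. Mmp7, with an unadjusted limma p of 0.0706, had an exact p of 0.039. In whole tumours, fewer cells of a type and less RNA per cell cannot be told apart.

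Interleukin 11 is a cytokine of the IL-6 family that activates STAT3 in the gut epithelium and stroma. Il11 lay at 4.99, 5.69 and 9.40 (lowest, median and highest of 6) in sulindac tumours, against 7.71, 9.96, 10.12, 10.16 and 12.11 in untreated obese tumours. The difference was -3.60 ± 1.06 log2 units (standard error, as after ± below unless SD is written), with an adjusted p of 0.588. Of the 6 sulindac tumours, 5 lay below every untreated obese tumour, and Mouse_114 at 9.40 lay within the untreated range. Il6, which encodes the family's best known member, lay at 4.21, 5.04 and 6.41 (lowest, median, highest) with sulindac, against 5.43, 5.56, 5.98, 6.32 and 8.32 without. Its difference was -1.21 ± 0.58 (adjusted p = 0.761), and -0.71 without untreated Mouse_96, which held the 8.32. Sulindac Mouse_129, Mouse_131 and Mouse_125 lay under 5 in Il6, at 4.21, 4.64 and 4.90, where the array says little about a gene. Among the 12 measured genes of the family, its receptors and STAT3 itself, a list added after the values were seen, 8 lay lower and 4 higher. Lif, which encodes leukaemia inhibitory factor, differed by -0.68 and the shared receptor gene Il6st by -0.28 (-0.53 without untreated Mouse_96).

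The matrix metalloproteinases are enzymes that cut collagen and other matrix proteins, and several are induced by inflammation. Mmp10 lay at 10.82, 11.85 and 15.11 (lowest, median, highest) with sulindac, against 13.82, 14.35, 14.60, 14.66 and 15.81 without, a difference of -2.26 ± 0.68 (adjusted p = 0.60). Mmp13 lay at 10.08, 11.01 and 15.28 with sulindac, against 11.47, 14.17, 14.55, 15.09 and 16.39 without, a difference of -2.73 ± 1.0 (adjusted p = 0.698). Mmp3 lay at 5.60, 6.28 and 9.81 with sulindac, against 7.37, 8.21, 8.26, 8.26 and 10.25 without, a difference of -1.68 ± 0.80 (adjusted p = 0.761). In all 3 genes the highest sulindac tumour was Mouse_114, which lay within the untreated range, while Mouse_X, Mouse_125 and Mouse_131 lay below every untreated tumour. Without Mouse_114 the differences were -2.80 for Mmp10, -3.47 for Mmp13 and -2.29 for Mmp3.

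The gelatinase gene Mmp9 differed by -1.14 ± 0.56 and the neutrophil collagenase gene Mmp8 by -1.20 ± 0.44 (-0.72 without untreated Mouse_96). In Mmp8, sulindac Mouse_X and Mouse_125 lay under 5, at 4.14 and 4.43, where the array says little about a gene. Matrilysin, the epithelial enzyme encoded by Mmp7, differed by -1.06 ± 0.56, and by -0.58 without sulindac Mouse_X, at 10.70 its lowest tumour. The macrophage elastase gene Mmp12 differed by -0.69 ± 0.52, and by -0.42 without untreated Mouse_96. Mmp2, a gelatinase of stromal cells, went the other way, averaging 11.45 ± 0.41 (SD) in the 6 sulindac tumours and 10.95 ± 0.29 (SD) in the 5 untreated ones, and the inhibitor gene Timp1 differed by -0.15 ± 0.35. Leaving out 1 tumour at a time, the number of list members lower with an unadjusted p under 0.05 was between 2 (without untreated Mouse_96) and 5 (without sulindac Mouse_114), and the median difference between -0.83 and -0.51.

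The promoters of the members at the head of this group are shown because they share a short sequence. The AP-1 site, TGANTCA on either strand (the motif is its own reverse complement), binds the Fos and Jun transcription factors. In the RefSeq promoters of GRCm38.p6, cut to the 250 bases before each start, it was found in 6.75% of 32851 promoters and in 7.82% of 27025 genes with any promoter. Among the 12 listed metalloproteinase and inhibitor genes with a promoter in that table, 5 held it, namely Mmp3, Mmp7, Mmp10, Mmp12 and Mmp13. These 5 are genes of one family on chromosome 9, so they do not count as independent cases. Mmp8, on the same chromosome and with a difference of -1.20, was not among them. Il11 held the AP-1 site before one of its 2 starts, with the motif's first base 98 bases before the start. The last 120 bases before the start are printed 5′ to 3′ with the motif in capitals, for Il11 at chr7:4778142-4778261 (minus strand), Mmp3 at chr9:7445702-7445821 (plus strand), Mmp10 at chr9:7502222-7502341 (plus strand) and Mmp13 at chr9:7272394-7272513 (plus strand). A match is a description of the letters and not evidence of binding in these tumours.
Il11: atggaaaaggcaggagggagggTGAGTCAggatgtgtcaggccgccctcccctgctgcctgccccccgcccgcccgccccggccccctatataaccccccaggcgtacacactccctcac
Mmp3: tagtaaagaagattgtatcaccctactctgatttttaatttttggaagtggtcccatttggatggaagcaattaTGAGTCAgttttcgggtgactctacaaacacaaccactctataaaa
Mmp10: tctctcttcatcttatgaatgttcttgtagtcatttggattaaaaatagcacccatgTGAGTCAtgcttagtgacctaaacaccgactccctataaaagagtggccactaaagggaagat
Mmp13: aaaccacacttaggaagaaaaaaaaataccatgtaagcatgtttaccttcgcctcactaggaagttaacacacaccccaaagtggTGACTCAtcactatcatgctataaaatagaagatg

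The growth factor genes Ereg and Pgf lay lower too, but not the lists they belong to as a whole. Ereg encodes epiregulin, a ligand of the EGF receptor that prostaglandins and inflammation raise in the intestine. Ereg lay at 7.80, 10.59 and 11.76 (lowest, median, highest) with sulindac, against 12.11, 12.50, 12.50, 12.52 and 13.39 without, a difference of -2.60 ± 0.90 (adjusted p = 0.683), and every sulindac tumour lay below every untreated one. The other 8 measured genes of the EGF receptor list, among them Hbegf, Tgfa and Btc, differed by less, and the list's median was 0.18 (0.07 without sulindac Mouse_124) with 6 of 9 members higher. Pgf, which encodes placental growth factor, lay at 5.39, 5.97 and 8.40 with sulindac, against 7.19, 7.37, 7.77, 8.10 and 9.12 without, a difference of -1.65 ± 0.48 (adjusted p = 0.588). Here 5 of 6 sulindac tumours lay below every untreated tumour, and Mouse_114 at 8.40 did not.

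Flt1, which encodes the receptor of placental growth factor, differed by -0.996 ± 0.39, and by -0.59 without untreated Mouse_96. Vegfa differed by -0.60 ± 0.34, and by -0.33 without that mouse. Of 12 measured angiogenesis genes, among them Pgf, Flt1 and Vegfa, 7 lay lower and 5 higher, with a median of -0.13 (-0.26 to -0.05 with 1 tumour left out). With an unadjusted limma p under 0.05, 2 (16.7%, against 3.48% of all probe sets) lay lower and 0 higher. The 2 became 1 without untreated Mouse_96 and 3 without untreated Mouse_109. Thbs1 encodes the matrix protein thrombospondin 1, and all 6 sulindac tumours, at 10.70 to 13.24, lay below the 5 untreated tumours, at 13.28 to 15.03. Sema7a, which encodes a membrane semaphorin of immune cells and fibroblasts, lay at 7.77, 8.87 and 9.82 (lowest, median, highest) with sulindac, against 9.70, 9.70, 10.61, 10.98 and 11.05 without, a difference of -1.57 ± 0.42 (adjusted p = 0.58). Only Mouse_114 among the sulindac tumours reached the untreated range. The vessel receptor gene Kdr and the endothelial list, with a median of -0.07 over 11 markers (-0.24 to 0.07 with 1 tumour left out), did not show a difference of that size.

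**Figure D2:**
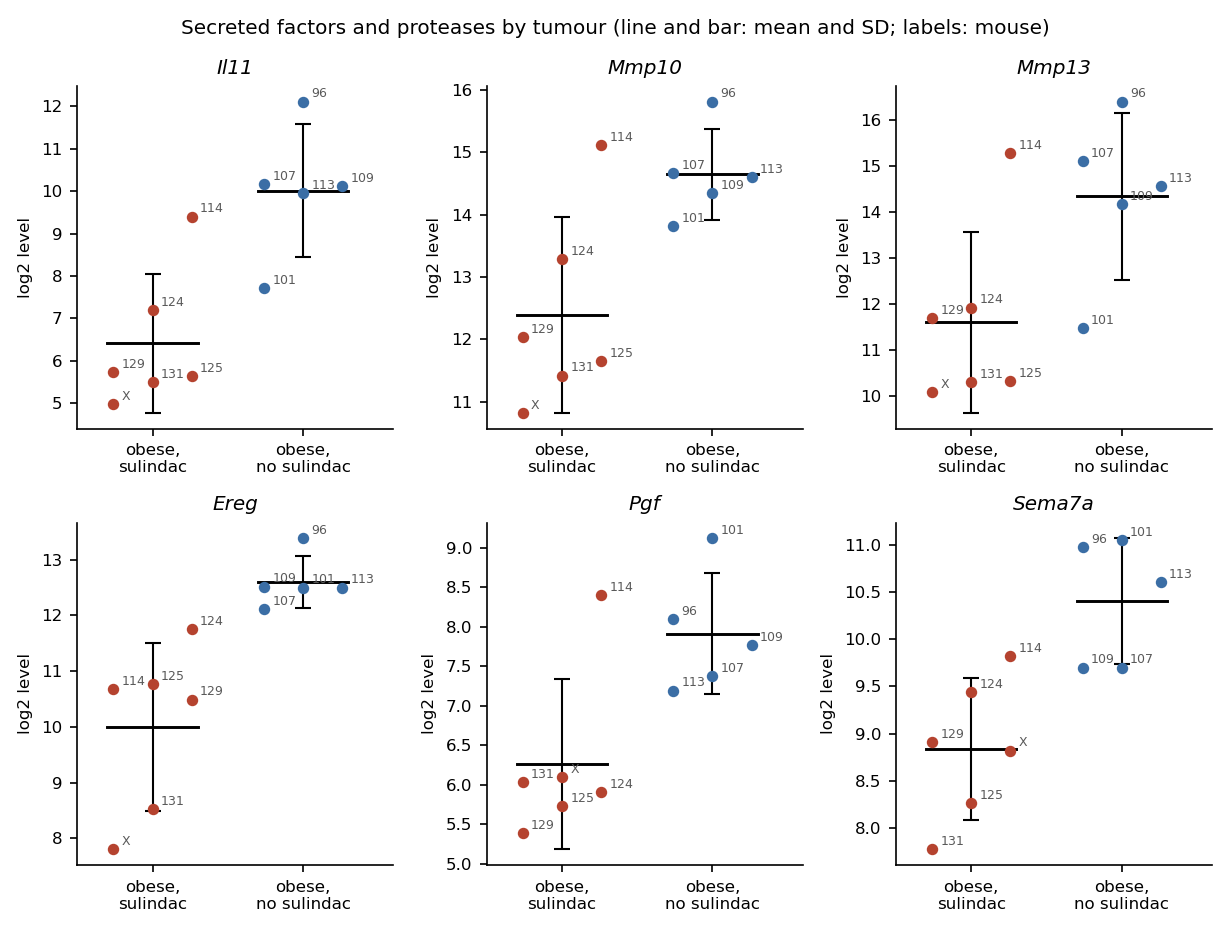
Log2 levels in each tumour for 6 secreted or membrane factors, obese with sulindac at the left of each panel and obese without at the right, with the mean as a line, the SD as a bar and the mouse number beside each point. Mouse_114 is the highest sulindac tumour in Il11, Mmp10, Mmp13, Pgf and Sema7a, and all 6 sulindac tumours lie below the untreated tumours in Ereg.

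Inflammatory genes as a whole were less uniform than these. Of 24 measured cytokines and NF-kB targets, 14 lay lower and 10 higher. With an unadjusted limma p under 0.05, 3 (12.5%, against 3.48% of all probe sets) lay lower and 0 higher. The 3 became 1 without untreated Mouse_107 and 5 without sulindac Mouse_114. The median of -0.28 was -0.49 without sulindac Mouse_124 and 0.04 without sulindac Mouse_X. Ccl2, which encodes the monocyte chemokine, differed by -0.99 ± 0.40. Cxcl1, which encodes a neutrophil chemokine, differed by -1.22 ± 0.70 (-0.74 without untreated Mouse_96) and Il23a by -1.60 ± 0.94. Il1b spanned 6.83 to 13.61 in sulindac tumours, beyond both ends of its range of 9.98 to 11.77 in untreated obese tumours, and differed by -0.62 ± 0.90. Tnf differed by -0.45 ± 0.52, and by -0.05 without sulindac Mouse_X. The chemokine gene Ccl4 went the other way, by 0.97 ± 0.52, and by 0.52 without sulindac Mouse_114.

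The tumours at both ends of these ranges differed in neutrophil markers. The mean level of 15 neutrophil markers was 5.66 to 8.35 in sulindac tumours and 6.66 to 7.70 in untreated obese tumours, lowest in Mouse_X and highest in Mouse_114, with 9 of 15 markers lower and 6 higher. The neutrophil protein genes S100a8 and S100a9 lay at 5.76 and 6.30 in Mouse_X and at 10.57 and 12.57 in Mouse_114. Mmp8 and Mmp9 are members of this list as well. Il11, Mmp10, Mmp13, Mmp3, Pgf and Sema7a each differed by more than 1.2 log2 units in the same direction with any 1 tumour left out. Mmp8 and Cxcl1 came to -0.72 and -0.74 without untreated Mouse_96. Leaving out a tumour does not adjust for neutrophil content, and the part of neutrophil content in the results above was not tested.

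Genes of prostaglandin synthesis, the pathway that sulindac blocks at the protein, showed modest differences. Of 22 measured genes of prostanoid and leukotriene synthesis and breakdown, 10 lay higher and 12 lower, with a median of -0.05. With an unadjusted limma p under 0.05, 1 (4.55%, against 3.48% of all probe sets) lay lower and 0 higher. The 1 became 0 without untreated Mouse_96 and 2 without sulindac Mouse_114. Ptgs2 lay at 7.68, 9.0 and 11.69 (lowest, median, highest) with sulindac, against 9.63, 9.71, 9.72, 10.95 and 11.41 without, a difference of -1.24 ± 0.77 (adjusted p = 0.832). Of the 6 sulindac tumours, 5 lay below every untreated tumour, while Mouse_114 lay above them all. Ptges lay at 8.05, 8.52 and 9.49 with sulindac, against 8.89, 8.92, 9.28, 9.37 and 10.17 without, a difference of -0.74 ± 0.35 (adjusted p = 0.761), with 5 of 6 sulindac tumours below every untreated one.

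Hpgd differed by 1.398 ± 1.02 with wide spread, at 8.81 to 13.63 with sulindac and 8.51 to 12.40 without. Ptgr1, whose enzyme also inactivates prostaglandins and leukotrienes, differed by 0.72 ± 0.58, and Alox15, which encodes a lipoxygenase, by -1.29 ± 0.79. Of 12 prostanoid and leukotriene receptor genes, 8 lay higher. Ptger2 differed by 0.37 ± 0.24 and Ptger4 by 0.50 ± 0.34, which was 0.17 without untreated Mouse_96. Ptgdr, which encodes a prostaglandin D2 receptor, differed by -0.43 ± 0.19 at levels under 5.2 on every array. Ptgs1, the gene of the constitutive cyclooxygenase, was not analysed here.

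Heat shock chaperones lay lower and cold-inducible RNA-binding proteins higher in 4 of the 6 sulindac tumours, while Mouse_114 and Mouse_124 mostly lay near the untreated tumours. Heat shock factor 1 drives chaperones that refold damaged proteins, and Cirbp and Rbm3 encode RNA-binding proteins known to accumulate when mammalian cells are mildly cooled. Of 17 measured heat shock factor targets, a list added after the values were seen, 15 lay lower, and the median was -0.54. Of the 17, 5 (29.4%, against 3.48% of all probe sets) lay lower with an unadjusted p under 0.05. The mean level of the list was 10.91 to 11.01 in sulindac Mouse_125, Mouse_129, Mouse_131 and Mouse_X, but 11.69 in Mouse_124 and 12.24 in Mouse_114, against 11.58 to 12.04 in untreated obese tumours. The wider family of 71 genes named Hsp or Dnaj, counted after the values were seen, was weaker, with 40 lower and 31 higher, 8 (11.3%) lower and 3 (4.23%) higher with an unadjusted p under 0.05 and a median of -0.08. The 17 immediate early genes, which respond fast to stress, had a median difference of -0.02.

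Hsph1, which encodes the HSP110 chaperone, lay at 10.57, 10.93 and 14.08 (lowest, median, highest) with sulindac, against 12.97, 13.05, 13.87, 14.18 and 14.20 without, a difference of -1.91 ± 0.65 (adjusted p = 0.652). The values fell into 4 tumours at or below 11.19 and the pair Mouse_124 and Mouse_114 at 13.38 and 14.08. Hspd1, which encodes the mitochondrial chaperonin HSP60, lay at 13.68, 14.60 and 15.08 with sulindac, against 15.00, 15.13, 15.25, 15.43 and 15.62 without, a difference of -0.78 ± 0.21 (adjusted p = 0.567). For Hspd1 and for Ppid, a cyclophilin that works with HSP90, 5 of 6 sulindac tumours lay below every untreated tumour, and Mouse_124 was the one that did not. Ppid differed by -0.86 ± 0.24 (adjusted p = 0.58), the HSP90 gene Hsp90aa1 by -0.60 ± 0.24 and its co-chaperone gene Chordc1 by -0.81 ± 0.26.

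The inducible HSP70 gene Hspa1a, which has a near-identical copy that an array may not separate, differed by -1.37 ± 0.78, and the small heat shock protein gene Hspb1 by -1.12 ± 0.79, which was -1.71 without sulindac Mouse_114. Dnajb1, which encodes an HSP40 co-chaperone, differed by 0.06 ± 0.26. Cirbp lay at 11.66, 14.09 and 15.13 (lowest, median, highest) with sulindac, against 10.63, 12.06, 12.07, 12.15 and 12.20 without, a difference of 1.67 ± 0.56 (adjusted p = 0.651). As with Hsph1, 4 sulindac tumours stood clear of the untreated range, and Mouse_114 and Mouse_124 lay within it. Rbm3 lay at 17.57, 18.11 and 18.28 with sulindac, against 17.19, 17.31, 17.45, 17.47 and 17.51 without, a difference of 0.61 ± 0.25 (adjusted p = 0.719), and every sulindac tumour lay above every untreated one. With 1 tumour left out, the number of the 17 heat shock targets lower with an unadjusted limma p under 0.05 ran from 4 to 8. It was 4 without untreated Mouse_107 and 8 without sulindac Mouse_114. Control tumours averaged 13.40 for Hsph1 and 12.14 for Cirbp.

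**Figure D3:**
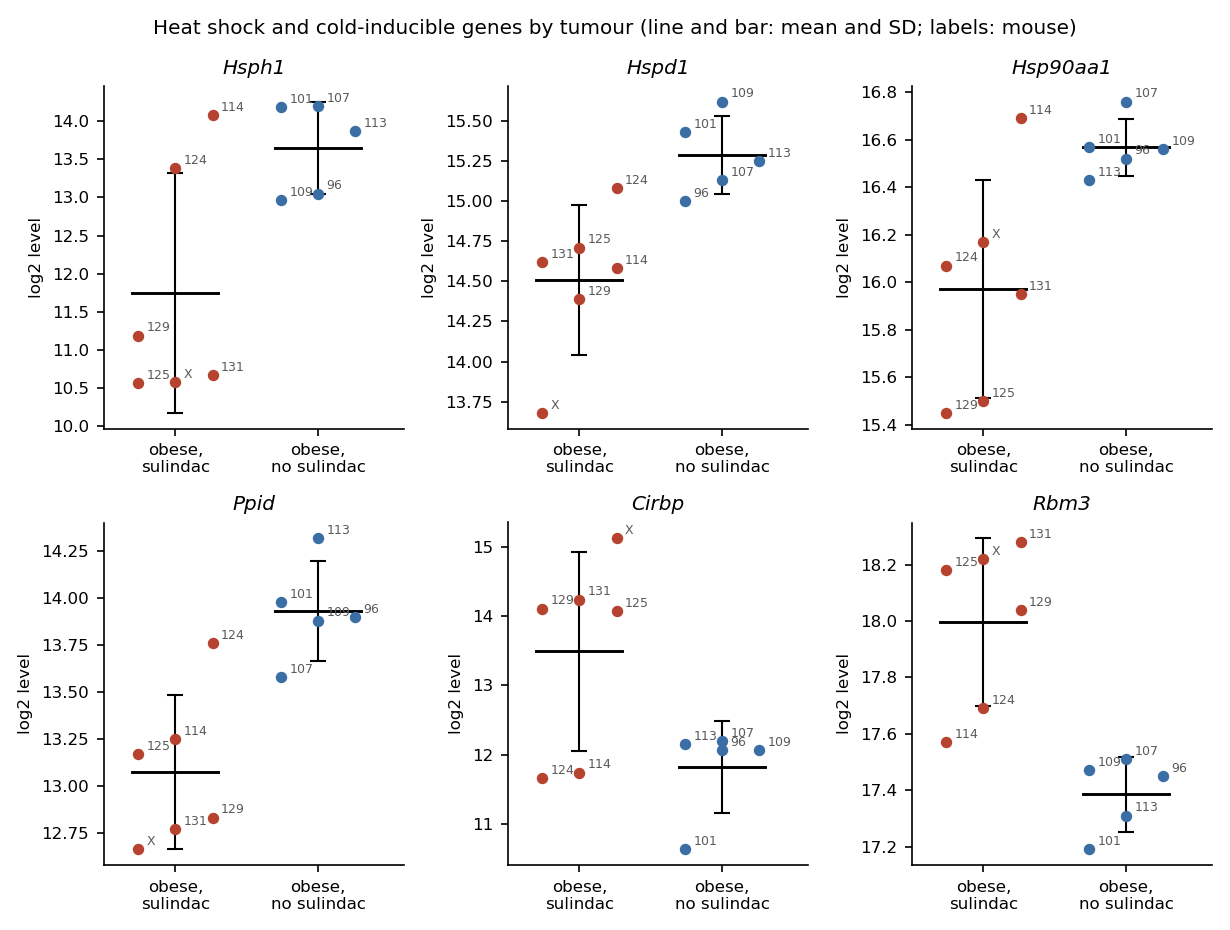
Log2 levels in each tumour for 4 chaperone genes and the cold-inducible genes Cirbp and Rbm3, obese with sulindac at the left of each panel and obese without at the right, with mean, SD and mouse numbers. In Hsph1 and Cirbp, Mouse_114 and Mouse_124 lie apart from the other 4 sulindac tumours and near the untreated ones.

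Chaperones and stress genes of the endoplasmic reticulum also lay lower in sulindac tumours. The unfolded protein response raises chaperones and degradation factors when proteins misfold in that compartment, partly through the transcription factor encoded by Xbp1. Of 24 measured genes of the response, 20 lay lower, and the median was -0.30 (-0.20 without untreated Mouse_113). Of the 24, 5 (20.8%, against 3.48% of all probe sets) lay lower with an unadjusted p under 0.05. The 5 were Xbp1, the co-chaperone gene Dnajb9, the kinase-like gene Trib3, the calnexin gene Canx and Hsp90b1, which encodes the chaperone GRP94. Leaving out 1 tumour at a time gave 3 such genes without untreated Mouse_113 and 8 without sulindac Mouse_114.

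Dnajb9 lay at 11.13, 11.81 and 12.04 (lowest, median, highest) with sulindac, against 12.24, 12.35, 12.44, 12.80 and 13.19 without, a difference of -0.86 ± 0.25 (adjusted p = 0.588), with all 6 sulindac tumours below. For Xbp1, 5 of 6 sulindac tumours, at 13.77 to 14.49, lay below the lowest untreated tumour at 14.62, and Mouse_124 lay at 14.66. Canx differed by -0.31 ± 0.12, Hsp90b1 by -0.47 ± 0.21, Atf4 by -0.33 ± 0.16 and Hspa5, the gene of the chaperone BiP, by -0.38 ± 0.23. Nupr1, which encodes a stress-induced chromatin protein, lay at 11.72, 13.36 and 14.06 with sulindac, against 14.16, 14.50, 14.50, 14.52 and 15.43 without, a difference of -1.51 ± 0.43 (adjusted p = 0.582). For Nupr1, all 6 sulindac tumours lay below all 5 untreated ones. Nupr1 is a member of the Paneth cell list and not of the unfolded protein response list, and it was chosen after its values were seen.

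The ER stress element is the promoter sequence through which this response raises chaperone genes, and a pair of promoters are shown because they carry it and their genes lay lower. CCAAT followed by CCACG, with 9 bases of any kind (N) between them, was searched on both strands, and reads CGTGG, 9 bases and ATTGG on the other. Of all promoters, 0.113% of 32851, and 0.13% of genes, held it within 250 bases before a start. Of 21 listed genes with a promoter in the table, 7 held it (Hspa5, Hsp90b1, Calr, Canx, Pdia6, Dnajc3 and Creld2). All 7 had lower means in sulindac tumours, as had 20 of the 24 measured genes of the list with or without it. Of the 5 list members lower with an unadjusted limma p under 0.05, Hsp90b1 and Canx were among the 7, and Xbp1, Dnajb9 and Trib3 were not. The 250 bases before the start are printed 5′ to 3′ with the element in capitals, for Hsp90b1 at chr10:86705445-86705694 (minus strand), which held 2, and for Canx at chr11:50325674-50325923 (minus strand), both from RefSeq on GRCm38.p6. As above, a match describes the letters only.
Hsp90b1: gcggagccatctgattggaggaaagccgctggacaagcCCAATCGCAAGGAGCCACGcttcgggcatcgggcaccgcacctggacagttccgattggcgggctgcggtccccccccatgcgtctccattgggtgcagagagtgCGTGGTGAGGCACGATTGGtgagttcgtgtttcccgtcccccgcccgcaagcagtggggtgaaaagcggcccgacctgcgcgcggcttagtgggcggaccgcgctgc
Canx: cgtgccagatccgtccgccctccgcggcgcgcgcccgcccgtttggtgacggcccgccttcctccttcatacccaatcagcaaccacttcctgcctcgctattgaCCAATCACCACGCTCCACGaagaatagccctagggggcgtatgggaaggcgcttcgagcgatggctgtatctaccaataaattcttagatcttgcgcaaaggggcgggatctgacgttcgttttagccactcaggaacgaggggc

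Markers of lymphatic vessels were among the genes that lay higher with sulindac. Ccl21a encodes a chemokine that lymphatic vessels use to draw in dendritic cells and T cells. It lay at 8.48, 9.65 and 10.58 (lowest, median, highest) with sulindac, against 6.48, 7.04, 7.96, 7.97 and 9.31 without, a difference of 1.92 ± 0.43 (adjusted p = 0.533). Here 4 of 6 sulindac tumours lay above every untreated tumour, and untreated Mouse_107 at 9.31 overlapped the rest. One of the 2 probe sets named Ccl21b held the values of the Ccl21c probe set on every array, with a difference of 2.14 ± 0.49 (adjusted p = 0.533). The other differed by 1.87 (adjusted p = 0.567), so these near-identical genes cannot be separated.

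Mmrn1, which encodes multimerin 1 of lymphatic endothelium and platelets, lay at 6.65, 7.47 and 7.79 with sulindac, against 5.05, 5.88, 6.28, 6.33 and 6.37 without, a difference of 1.32 ± 0.30 (adjusted p = 0.533), with all 6 sulindac tumours above. The lymphatic hyaluronan receptor gene Lyve1 lay at 9.35, 9.98 and 11.54 with sulindac, against 7.62, 8.98, 9.12, 9.65 and 9.87 without, a difference of 1.14 ± 0.48 (adjusted p = 0.719), and 3 sulindac tumours lay above every untreated one. Of the 7 lymphatic markers 6 lay higher, 3 (42.9%, against 3.07% of all probe sets) with an unadjusted p under 0.05 and 2 without untreated Mouse_101. The other markers did not share these sizes. Flt4, the gene of the lymphatic VEGF receptor, differed by 0.19, Reln by 0.20 and Pdpn, also made by fibroblasts, by -0.52. Prox1, which epithelial tumour cells of the colon make as well, differed by 0.04, and by -0.32 to 0.38 with 1 tumour left out.

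**Figure D4:**
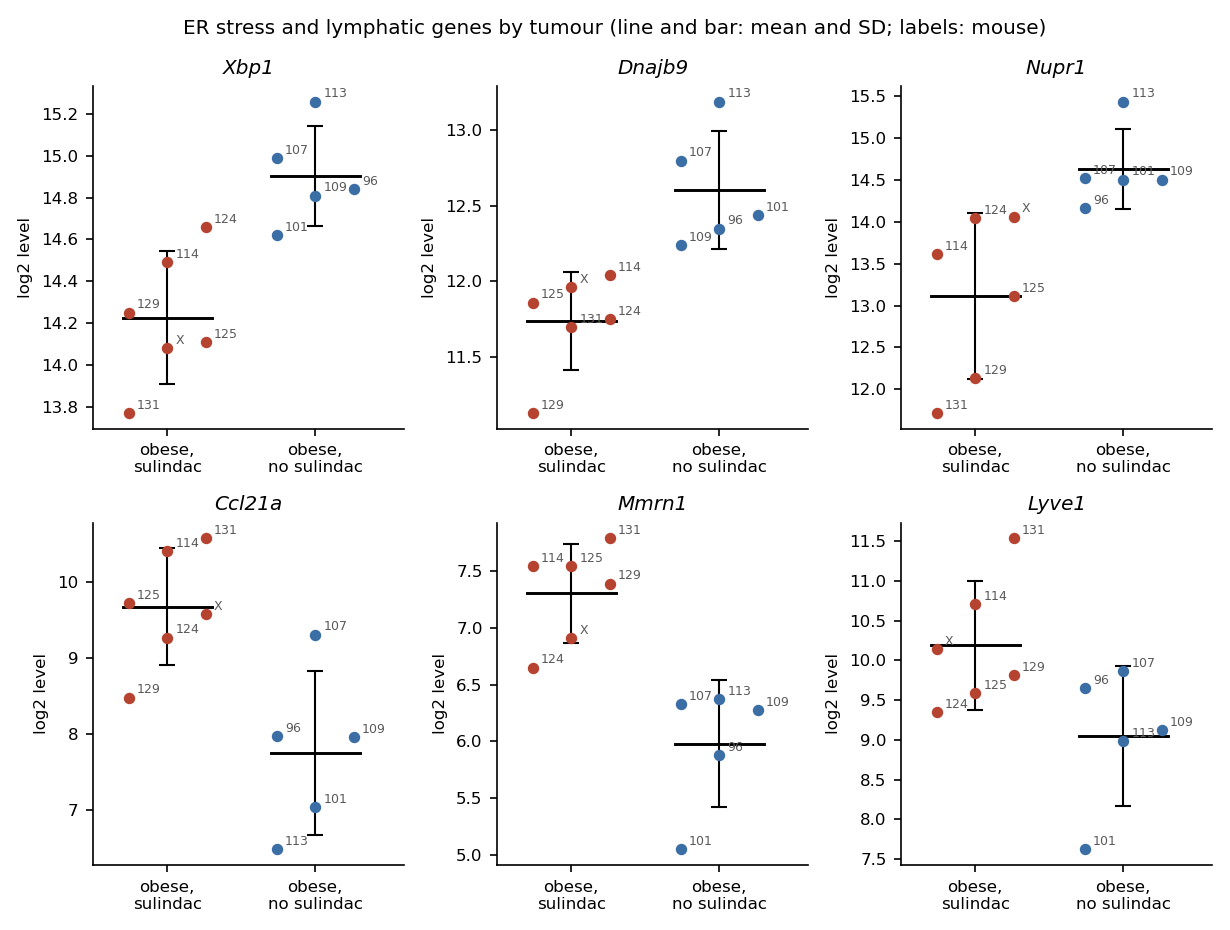
Log2 levels in each tumour for the unfolded protein response genes Xbp1 and Dnajb9, for Nupr1 and for the lymphatic genes Ccl21a, Mmrn1 and Lyve1. Obese with sulindac is at the left of each panel and obese without at the right, with mean, SD and mouse numbers. The groups do not overlap in Dnajb9, Nupr1 and Mmrn1, and 1 untreated tumour, Mouse_107, reaches the sulindac range in Ccl21a.

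Several genes of antigen-presenting and T cells lay higher. Ccl17, which encodes a chemokine of dendritic cells, lay at 7.78, 8.29 and 9.21 (lowest, median, highest) with sulindac, against 6.78, 7.25, 7.45, 7.73 and 7.83 without, a difference of 0.95 ± 0.25 (adjusted p = 0.567), with 5 of 6 sulindac tumours above every untreated one. Cxcr3, which encodes the receptor of interferon-induced chemokines on T cells, lay at 5.04 to 5.81 with sulindac and 4.56 to 4.98 without, with no overlap and a difference of 0.61 ± 0.16 (adjusted p = 0.567). The dendritic cell genes Batf3 and Itgax differed by 0.48 ± 0.18 and 0.64 ± 0.30, and the class II gene H2-Aa by 1.04 ± 0.53, which was 0.60 without untreated Mouse_96. Every untreated tumour lay under 5 in Cxcr3 and in Batf3, where the array says little about a gene. Of 12 dendritic cell markers 9 lay higher, 2 (16.7%, against 3.07% of all probe sets) with an unadjusted p under 0.05. The 2 became 1 without untreated Mouse_96 and 4 without untreated Mouse_109. Of 19 interferon response genes 16 lay higher, 0 with such a p but 4 without untreated Mouse_109, and Gbp2, a guanylate-binding protein of interferon-treated cells, differed by 1.16 ± 0.72. The 12 T cell markers had a median of 0.18, which was -0.03 without untreated Mouse_96.

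Mitochondrial respiration genes lay slightly higher. Of 20 listed genes 18 lay higher, 5 (25.0%, against 3.07% of all probe sets) with an unadjusted p under 0.05, and the median was 0.21. In 3 of the 5 every sulindac tumour lay above every untreated one, as in 0.347% of all probe sets. Without untreated Mouse_101, 3 genes lay higher with such a p, and without sulindac Mouse_131, 7 did. The ATP synthase gene Atp5a1 lay at 17.10, 17.23 and 17.42 (lowest, median, highest) with sulindac, against 16.58, 16.73, 16.95, 16.97 and 17.03 without, a difference of 0.39 ± 0.12 (adjusted p = 0.60). Its partners Atp5o and Atp5b differed by 0.39 ± 0.12 and 0.33 ± 0.12, and the complex I genes Ndufs3 and Ndufv1 by 0.38 ± 0.16 and 0.39 ± 0.17. Over all 93 genes whose symbols mark respiratory chain or ATP synthase subunits the pattern was weaker, with 64 higher. With an unadjusted p under 0.05, 8 (8.60%, against 3.07% of all probe sets) lay higher and 4 (4.30%, against 3.48%) lower.

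Of 39 proteasome subunit genes 32 lay higher, 7 (17.9%, against 3.07% of all probe sets) with an unadjusted p under 0.05. The smallest p was in Psmd8, at 0.54 ± 0.16, and the 7 became 2 without untreated Mouse_101. Of 358 zinc finger genes named Zfp, 229 lay lower. With an unadjusted p under 0.05, 30 (8.38%, against 3.48% of all probe sets) lay lower and 7 (1.96%, against 3.07%) higher. Both families were counted after their values were seen.

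Lipid genes lay on both sides. Pnpla2, which encodes adipose triglyceride lipase, lay at 13.40, 13.58 and 14.10 (lowest, median, highest) with sulindac, against 12.76, 12.96, 13.09, 13.14 and 13.26 without, a difference of 0.61 ± 0.15 (adjusted p = 0.567) with no overlap. The lipid droplet coat gene Plin2 lay at 12.71 to 13.18 with sulindac and 13.11 to 13.60 without, a difference of -0.43 ± 0.20. Acaa1b, a peroxisomal thiolase gene, lay at 6.13 to 6.72 with sulindac and 7.06 to 7.75 without, and Angptl4, whose product inhibits lipoprotein lipase, at 6.16 to 7.70 with sulindac and 7.62 to 8.11 without. Of 27 fatty acid oxidation and PPAR genes 13 lay higher and 14 lower. With an unadjusted p under 0.05, 0 lay higher and 3 (11.1%, against 3.48% of all probe sets) lower, namely Plin2, Acaa1b and Angptl4. Of 15 cholesterol genes 12 lay higher, 0 with an unadjusted p under 0.05.

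Stem cell genes of the WNT pathway, which drives azoxymethane tumours, lay mostly lower but with wide spread. Of 16 measured genes 12 lay lower, 1 (6.25%, against 3.48% of all probe sets) with an unadjusted limma p under 0.05. The 1 became 0 without untreated Mouse_113 and 3 without sulindac Mouse_114. The median was -0.19, and -0.36 without sulindac Mouse_X and -0.09 without untreated Mouse_96. The progenitor transcription factor gene Sox9 lay at 14.50 to 15.49 with sulindac and 15.44 to 15.98 without, a difference of -0.63 ± 0.25 (adjusted p = 0.704). Lgr5, the marker of crypt stem cells, lay at 9.18, 10.48 and 12.08 (lowest, median, highest) with sulindac, against 11.51, 11.95, 12.01, 12.07 and 13.69 without, a difference of -1.70 ± 0.91 (adjusted p = 0.804). Mouse_125, Mouse_129 and Mouse_131 lay near 9 and the other 3 sulindac tumours within the untreated range. The direct WNT targets Axin2 and Myc differed by 0.14 ± 0.31 and -0.15 ± 0.24, the WNT inhibitor gene Wif1 by -1.23 ± 0.72 and Cd44 by -0.41 ± 0.25.

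Of 19 cell cycle genes 18 lay higher, 0 with an unadjusted p under 0.05, with a median of 0.28 that was 0.15 without untreated Mouse_113. Mki67, the proliferation marker, averaged 14.59 ± 0.19 (SD) in the 6 sulindac tumours and 14.10 ± 0.40 (SD) in the 5 untreated ones, and Top2a differed by 0.45 ± 0.30. Birc5, the survivin gene, differed by 0.34 ± 0.33, and by 0.14 without untreated Mouse_113. The 23 apoptosis regulators had 11 members higher and 12 lower.

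Absorptive and goblet cell genes mostly lay higher, and Paneth cell genes did not. Of 19 absorptive colonocyte markers 15 lay higher with a median of 0.45, and of 12 goblet cell markers 8 with a median of 0.50, and no marker lay higher with an unadjusted p under 0.05, though 4 goblet cell markers did without untreated Mouse_107. The goblet cell list's 1 marker (8.33%, against 3.48% of all probe sets) with such a p lay lower, namely Gfi1, which encodes a transcription factor of secretory cells, at -0.56. Of 8 Paneth cell markers 3 lay higher and 5 lower, and the median of -0.17 ran from -0.77 to 0.24 with 1 tumour left out. The 1 marker (12.5%, against 3.48% of all probe sets) that lay lower with such a p was Nupr1, named above. Without untreated Mouse_96 the first median was 0.08, and without untreated Mouse_113 the second was 0.11. The chloride exchanger gene Slc26a3 differed by 1.85 ± 1.06, the carbonic anhydrase gene Car4 by 1.52 ± 1.12 and the goblet cell genes Retnlb and Zg16 by 1.82 ± 0.95 and 1.61 ± 0.87, which were 1.02 and 0.92 without untreated Mouse_113. Klf4, a transcription factor of differentiating epithelium, lay at 8.50 to 10.66 with sulindac and 7.24 to 8.83 without, a difference of 1.31 ± 0.54 (adjusted p = 0.719). The junction gene Cldn8 differed by 1.56 ± 0.54, the highest of 13 claudin and junction genes, of which 7 lay higher and 6 lower with a median of 0.0. The FXR gene Nr1h4, whose receptor senses bile acids, differed by 1.43 ± 0.75. Klf4, Cldn8 and Nr1h4 are not among the absorptive or goblet cell markers counted above. Of 12 bile acid genes 11 lay higher, 0 with an unadjusted p under 0.05.

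Among drug metabolism genes, Cyp2b10, a target of the xenobiotic receptor CAR, lay at 8.13, 9.21 and 10.88 (lowest, median, highest) with sulindac, against 6.68, 6.88, 7.34, 7.34 and 9.52 without, a difference of 1.78 ± 0.66 (adjusted p = 0.698). All sulindac tumours lay above 4 of the 5 untreated ones, and untreated Mouse_96 at 9.52 lay among them. Nqo1, a quinone reductase gene and target of NRF2, differed by 1.17 ± 0.48, while the 17 NRF2 targets had 9 members higher and 8 lower. The drug efflux pump genes Abcb1a and Abcb1b differed by -1.44 ± 0.83 and -1.02 ± 0.59. Cyp1a1, a target of the aryl hydrocarbon receptor, lay under 4.2 on all 11 arrays. Sat1 and Odc1, the polyamine genes that sulindac alters in cultured human colon cancer cells, differed by -0.15 ± 0.29 (-0.002 without sulindac Mouse_114) and 0.16 ± 0.26.

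Other genes with small p came from varied functions. Higher in sulindac tumours, with no overlap and adjusted p between 0.533 and 0.567, were Psph, which encodes the last enzyme of serine synthesis (0.76 ± 0.16), Pcif1, which encodes an mRNA cap methyltransferase (0.88 ± 0.21), the Rap1 exchange factor gene Rapgef1 (0.64 ± 0.16) and Ppp6r3, a subunit gene of protein phosphatase 6 (0.48 ± 0.12). Psph lay at 7.79, 8.01 and 8.51 (lowest, median, highest) with sulindac, against 7.03, 7.24, 7.29, 7.39 and 7.50 without. The other 14 measured genes of the amino acid response and serine synthesis list lay on both sides of 0, 7 of them higher. Grk6, a receptor kinase gene, differed by 0.81 ± 0.18 with 5 of 6 sulindac tumours above every untreated one.

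Lower in sulindac tumours was Pole4, a subunit gene of DNA polymerase epsilon, at 11.74, 11.77 and 11.99 (lowest, median, highest) with sulindac, against 11.82, 12.58, 12.77, 13.30 and 13.39 without, a difference of -0.97 ± 0.21 (adjusted p = 0.533). The 6 sulindac tumours lay within 0.25 log2 units of each other, and untreated Mouse_96 at 11.82 lay with them. Without Mouse_96 the difference was -1.20 and Pole4 had an adjusted p of 0.022, the one gene with an adjusted p under 0.05 in any fit tried. The zinc finger genes Zfp458 (-0.91 ± 0.21) and Zfp830 (-0.65 ± 0.16), Tsnax, which encodes a partner of the RNA-binding protein translin (-0.76 ± 0.18), the RNA-binding protein gene Rbm45 (-0.60 ± 0.15) and Hltf, a DNA helicase gene of replication repair (-0.50 ± 0.13), lay lower with no overlap. Zfp160, Tex16, Tsga10 and the lysosomal membrane protein gene Cln3 differed by -0.69, -0.71, -0.71 and -0.85, with an overlap in each.

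Among genes with an unadjusted p under 0.05 and a mean of at least 7 in either group, and beside the Ccl21 genes, the 5 with the largest differences on the higher side were Mptx1, a mucosal pentraxin gene (2.18 ± 1.003), the proton pump gene Atp12a (1.89 ± 0.74), the homeobox gene Dlx3 (1.84 ± 0.85), Lrrn3 (1.81 ± 0.64) and Serpinb11 (1.79 ± 0.80). In Mptx1, Mouse_131 and Mouse_X lay at 10.58 and 11.17 and the other 4 sulindac tumours at 5.10 to 6.70, against 4.16 to 6.46 in untreated tumours. On the lower side, Afm, the gene of the vitamin E carrier afamin, lay at 5.85, 7.54 and 10.83 (lowest, median, highest) with sulindac, against 8.47, 9.06, 9.61, 9.79 and 12.20 without, a difference of -2.23 ± 0.81 (adjusted p = 0.698). The fat cell genes Lep and Adipoq lay at 5.36 or lower on all 11 arrays. Gdf15, a gene that anti-inflammatory drugs raise in colon cancer cells, was not analysed here.

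**Figure D5:**
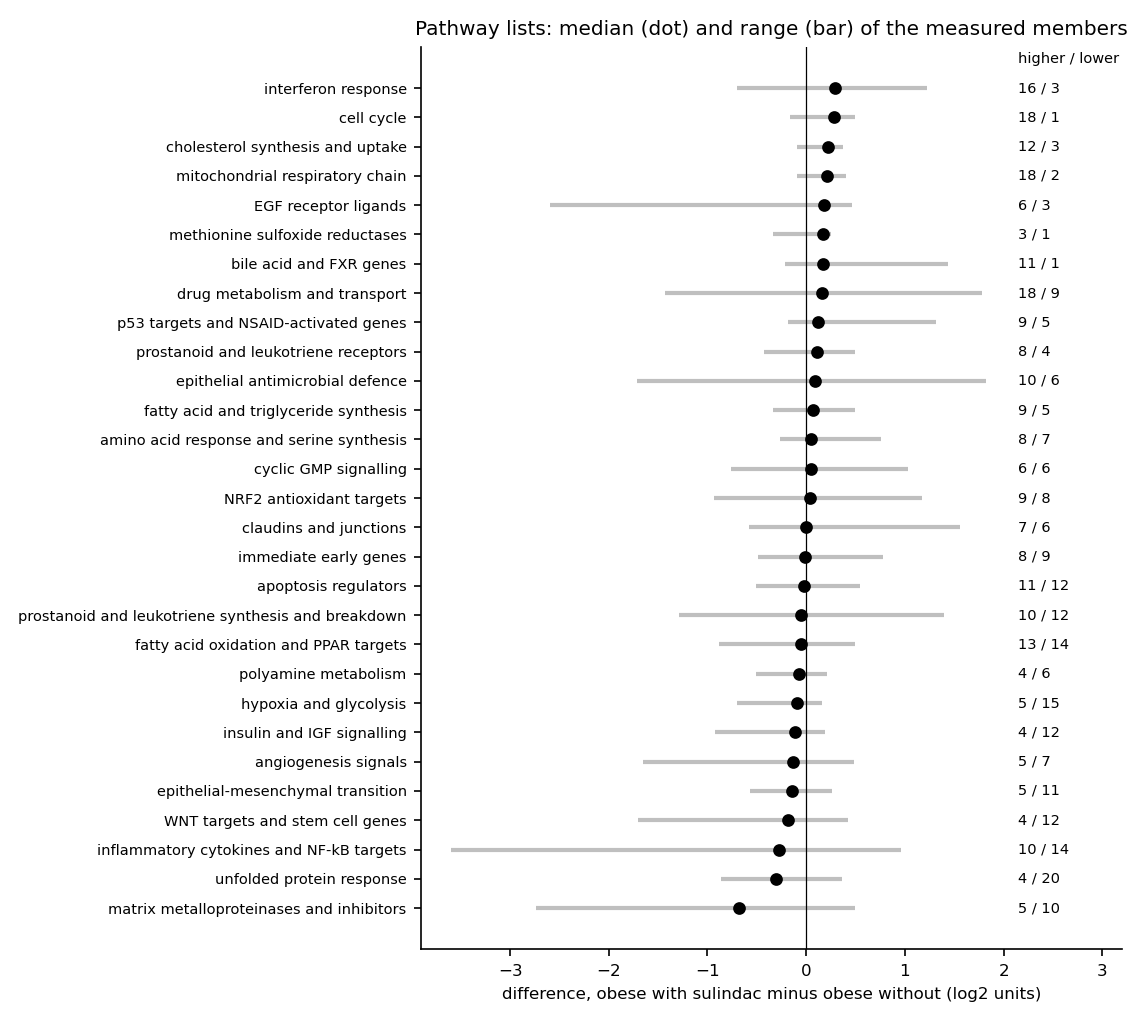
For each of 29 pathway lists, the dot is the median and the bar the range of its members' log2 differences, obese with sulindac minus obese without, with the numbers of members higher and lower at the right. The metalloproteinase and unfolded protein response lists lie at the low end with medians of -0.69 and -0.30, and the interferon and cell cycle lists at the high end with 0.29 and 0.28, which ran from 0.11 to 0.57 and from 0.15 to 0.42 with 1 tumour left out.

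Of the 29 pathway lists, 15 had more members higher in sulindac tumours and 13 more members lower, against 51.7% of all probe sets higher and 48.3% lower. Hypoxia and glycolysis genes lay mostly lower, 15 of 20, with a median of -0.10 (-0.22 to -0.03 with 1 tumour left out). With an unadjusted limma p under 0.05, 1 (5.0%, against 3.48% of all probe sets) lay lower. The 1 became 0 without untreated Mouse_96 and 5 without sulindac Mouse_114. Among cell type markers, 10 of 11 smooth muscle markers lay higher with a median of 0.32 (0.15 without sulindac Mouse_125), and the one with the smallest p was the actin-binding protein gene Lmod1 at 0.70 ± 0.26. Of 14 fibroblast and matrix markers 9 lay higher and 5 lower, with a median of 0.09 (-0.03 without untreated Mouse_113). Their differences ran from -1.56 to 0.97, and the highest was that of Col6a1 (0.97 ± 0.32). The macrophage list had a median of 0.01 with 8 of 15 markers higher, and the scavenger receptor gene Msr1 differed by -0.51 ± 0.25.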

How the data were processed

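RNA of 22 colon tumours was hybridised to Clariom S arrays. The deposited values are levels read as log2 from their range, 3.34 to 19.49. Per the submitters' processing notes the authors used Transcriptome Analysis Console 4.0, and for the summarization of probes and the normalization the sources used here hold no statement. Of 22203 probe sets, 19572 carried 1 gene symbol and 2631 are unnamed here, and 254 held values identical to another's. A gene with several probe sets was represented by the one with the highest mean, or by the one its rule below picked.

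In R 4.3.3, limma 3.58.1 (lmFit, eBayes) fitted a mean for each of the 4 groups over all 22 arrays. The contrast was obese with sulindac minus obese without, two-sided, with Benjamini-Hochberg adjustment over all probe sets and no filter, and the fit was tested on simulated data. Alternatives were the 11 arrays alone, an intensity trend, a robust prior, array quality weights, quantile normalization, median centring, a mean of at least 5, 1 probe set a gene, each tumour left out, and an exact permutation test of single genes. The number of arrays limits the precision.

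The members and the 53 gene lists (720 of 785 genes measured) were chosen with earlier results of these data known. The heat shock, cold-inducible and IL-6 family lists and the symbol families were added after the values were seen. Lists were described by counts and medians, with no test. The rule for names took the 10 smallest p in each direction, the 5 largest differences in each direction among genes with an unadjusted p under 0.05 and a mean of at least 7 in either group, up to 6 members with the smallest p of each list described (every member of a list of 6 or fewer), and a fixed set of sulindac, WNT, cytokine and fat genes. Predicted genes, clones and olfactory or vomeronasal receptors were not named. Other genes, such as Sema7a, Nupr1, Ccl17 and Cxcr3, were chosen after their values were seen. Promoters were RefSeq's on GRCm38.p6, searched with Python 3.11.15.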

Additional observations from a re-analysis of the deposited data

Results flagged for a closer look

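In 256 groups of 5 or 6 tumours (128 named genes, each with and without sulindac), 18 held a highest or lowest tumour far from the others by Dixon's criterion, where chance alone flags about 1 in 20, or 13. Sulindac Mouse_114 was far above the other sulindac tumours in Ptgs2 (11.69), Mmp13 (15.28), Mmp3 (9.81) and Pgf (8.40). Mouse_X was low in Mmp7 (10.70) and high in Lrrn3 (10.25). Mouse_129 was low in Thbs1 (10.70) and Dnajb9 (11.13), Mouse_124 low in Batf3 (4.50) and high in Pole4 (11.99), and Mouse_131 high in the albumin gene Alb (15.46, the next tumour at 8.10). Among untreated obese tumours, Mouse_113 was high in Nupr1 (15.43), Lgr5 (13.69), Tsga10 (8.07) and Chordc1 (12.51), Mouse_96 was low in Ptger4 (8.23) and high in Cyp2b10 (9.52), and Mouse_101 was low in Cirbp (10.63). The causes were not tested.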

How the results depend on the processing

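No paired analysis was possible because the groups share no mouse numbers. The counts of probe sets by each rule stayed within 1.5 times their values under all 8 settings that keep every tumour. Leaving out 1 tumour at a time, 0.0% to 0.0045% of all probe sets, or 0 to 1, had an adjusted p under 0.05 in limma (the 1 was Pole4 without obese Mouse_96, difference -1.20, adjusted p = 0.022), 0.162% (without obese Mouse_113) to 0.432% (without obese Mouse_109) were at least 2-fold higher and 0.216% (without obese Mouse_113) to 0.513% (without sulindac Mouse_114) at least 2-fold lower with an unadjusted p under 0.05, and 0.459% to 0.806% lay wholly above and 0.509% to 0.788% wholly below, where a smaller group has fewer values to overlap. Of 128 named genes, 121 kept their direction in every setting. Leaving out 1 tumour, 7 took both signs: Il1b (-1.31 to 0.046), Dnajb1 (-0.0217 to 0.158), Axin2 (-0.09 to 0.37), Myc (-0.28 to 0.006), Odc1 (-0.01 to 0.32), Timp1 (-0.314 to 0.0183) and Prox1 (-0.32 to 0.38, and -0.21 with array quality weights). The cause was not tested. With a mean of at least 5, which drops members, list medians moved to 0.69 for squamous epithelium, -0.78 for red blood cells and 0.61 for exocrine pancreas. The exact permutation test gave p under 0.05 for 68 of the 128 named genes, of which many were chosen by their p, and 0.00433 is the smallest it can give. Of the 75 named genes with an unadjusted limma p under 0.05, 17 had no exact p under 0.05. Another 10 named genes had an exact p under 0.05 and no such limma p. Quantile normalization and median centring moved the median of all probe sets to 0.001 and -0.001. Detection calls per array were not used here, so levels under 5 limit what can be said of dim genes.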

Other observations

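The albumin gene Alb and the heme synthesis gene Alas2, neither expected of colon epithelium, varied widely between tumours. Alb lay at 5.4, 7.43 and 15.46 (lowest, median and highest) in sulindac tumours, against 8.65, 9.15, 9.99, 11.75 and 12.97 in untreated obese tumours, a difference of -2.13 ± 1.37 (adjusted p = 0.841), which was -3.55 without sulindac Mouse_131. The 9 liver markers had a median difference of 0.01 (-0.07 to 0.10 with 1 tumour left out), and Alb differed most among them. Mouse_131 was also the highest sulindac tumour in Afm. Alas2 lay at 5.19, 5.82 and 7.16 with sulindac, against 6.25, 6.48, 7.44, 7.88 and 9.45 without, a difference of -1.45 ± 0.61 (adjusted p = 0.719), and -0.96 without untreated Mouse_113. Of 5 red blood cell markers all had lower means with sulindac, with a median of -0.15 (-0.24 without sulindac Mouse_124).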
